A study of Mus musculus with 51 samples.

Results

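The aryl hydrocarbon receptor (AHR) gene Ahr, its repressor gene Ahrr and the target genes Cyp1a1, Cyp1b1 and Tiparp were followed through every group of the series, 5 of the 40077 genes in the deposited tables. They were chosen by name after Cyp1b1 had been seen to rise with IFN-γ in the control cells of the sgRNA experiment, so the values of that comparison are a description and carry no test. The question was whether the other targets of the receptor followed Cyp1b1. Bulk RNA-seq covered 51 libraries, of which 16 were Myc-CaP cells in culture, a mouse prostate cancer line, and 35 were tumors grown under the skin. In the TAK-243 experiment, wild-type cells were left untreated or received 50 nM TAK-243 (an inhibitor of UBA1, the enzyme that activates ubiquitin), IFN-γ at 1 ng/mL, or both, for 18 hours. In the sgRNA experiment, control cells (NC, here sgNC) and Uba1-depleted cells (sgUba1) received PBS or IFN-γ, and each of these 8 cell groups had 2 libraries. The tumors fell into 4 experiments, which were B16-BL6 melanoma with sgNC (3 tumors) or sgUba1 (4), Myc-CaP with sgNC (3) or sgUba1 (7), Myc-CaP with an empty vector (EV, 3) or Uba1 overexpression (OE, 4), and wild-type Myc-CaP in mice given vehicle (6) or TAK-243 at 25 mg/kg (5). Mice were 6 to 8 weeks old, male FVB for Myc-CaP and C57BL/6 for B16-BL6. The guide RNA lines were expanded from single sorted cells and selected with puromycin, so each stands for a clone, depletion was partial, and the overexpressed Uba1 was driven by a CMV promoter in a lentiviral vector. Cells were injected into both flanks, so 2 tumors of a group may have come from 1 mouse, and p-values measure the spread between the libraries as labelled.

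AHR is a transcription factor that waits in the cytoplasm with HSP90 and p23 until a small molecule binds it, for example a dioxin or a tryptophan metabolite such as kynurenine. It then pairs with ARNT in the nucleus and binds the short core GCGTG near its target genes. Cyp1a1 and Cyp1b1 encode cytochrome P450 enzymes that oxidize aromatic compounds and, for Cyp1b1, estrogens. Ahrr encodes a repressor that competes for ARNT, and Tiparp encodes a mono-ADP-ribosyltransferase that marks AHR for degradation, so both act in feedback on the receptor. AHR is itself degraded through ubiquitin and the proteasome.

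The GENCODE M21 annotation of GRCm38 places Cyp1b1 at chr17:79701537-79715061 (− strand), Tiparp at chr3:65528410-65555518 (+), Cyp1a1 at chr9:57687928-57703824 (+), Ahr at chr12:35497974-35535038 (−) and Ahrr at chr13:74211118-74292331 (−). RefSeq promoter windows on GRCm38.p6, which run from 250 bases before to 50 bases after the gene's start, were found for 4 of the 5 genes and not for Ahr. The windows of Cyp1b1, Tiparp and Cyp1a1 are shown because these are the AHR targets with more than 6 counts in any library. The core GCGTG is in capitals, and CACGC is the same core on the other strand.
Cyp1b1, chr17:79715012-79715311, − strand: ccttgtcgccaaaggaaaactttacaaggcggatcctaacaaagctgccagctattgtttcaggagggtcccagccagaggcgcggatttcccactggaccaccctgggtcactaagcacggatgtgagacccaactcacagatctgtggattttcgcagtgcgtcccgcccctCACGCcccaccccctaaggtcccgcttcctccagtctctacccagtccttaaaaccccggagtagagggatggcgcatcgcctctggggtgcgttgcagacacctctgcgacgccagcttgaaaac
Tiparp, chr3:65528197-65528496, + strand: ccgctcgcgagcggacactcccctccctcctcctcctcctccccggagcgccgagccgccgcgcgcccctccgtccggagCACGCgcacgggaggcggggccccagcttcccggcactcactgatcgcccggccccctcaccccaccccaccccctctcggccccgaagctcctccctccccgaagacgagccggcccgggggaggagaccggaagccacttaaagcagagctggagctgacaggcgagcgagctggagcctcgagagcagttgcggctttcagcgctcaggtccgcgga
Cyp1a1, chr9:57697363-57697662, + strand: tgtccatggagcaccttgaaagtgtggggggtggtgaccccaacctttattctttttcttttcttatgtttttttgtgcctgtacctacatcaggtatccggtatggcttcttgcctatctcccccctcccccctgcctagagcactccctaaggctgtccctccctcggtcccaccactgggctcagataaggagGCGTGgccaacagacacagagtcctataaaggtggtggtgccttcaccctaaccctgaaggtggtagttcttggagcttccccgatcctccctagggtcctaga
Each of these windows held 1 core, which began at position −76 from the gene's start in Cyp1b1, −170 in Tiparp and −54 in Cyp1a1. The RefSeq start of Cyp1a1 lies inside the GENCODE span of the gene. The window of Ahrr, at chr13:74292282-74292581 (−), held 3 cores. Of all 32851 promoter windows in the same table, 32.4% held at least 1 core and 3.91% held at least 3, counted on both strands with overlapping matches included. These are matches of letters in a short window and say nothing of binding.

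The targeted gene checked the labels first. Uba1 stood at 283 and 295 CPM (counts scaled to library size with TMM factors) in the sgUba1 cells and at 526 and 533 CPM in the sgNC cells, and it was lower in all B16-BL6 sgUba1 tumors (208 to 247 CPM) than in their controls (409.5 to 455 CPM). The OE tumors lay at 631 to 747 CPM against 278 to 310 CPM with the empty vector. In the Myc-CaP sgRNA tumors this check of RNA failed in part. Tumors 1 to 3 of the 7 labelled sgUba1 had 197, 202 and 211 CPM of Uba1, below the controls at 320, 325 and 337 CPM, while the other 4 (tumors 4 to 7) had 361 to 383 CPM, above every control. The paper judged depletion in its lines by Sanger sequencing and immunoblot. RNA-seq does not measure UBA1 protein, so RNA alone does not settle whether these 4 tumors were depleted. Results from that experiment are therefore given with and without these 4 tumors. Total counts ran from 12860987 to 38032395 in the cells and from 8652097 to 35693203 in the tumors. Prostate epithelial markers summed to 2613 to 4373 CPM in the cells, although Epcam, an epithelial adhesion molecule, was at 0 in 4 of the 8 cell groups, and fibroblast markers summed to 14.1 to 40.6 CPM there against 469 to 3148 CPM in the tumors. One TAK-243 tumor (tumor 1) had 82.6 CPM of skin keratinocyte markers, whereas the other 4 had 1.01 to 2.71 CPM.

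The 5 genes stood at very different levels. On the TPM scale, which corrects for gene length and so allows genes to be compared, Tiparp had the highest group means, from 32.8 TPM in IFN-γ treated cells to 147 TPM in EV tumors. Cyp1b1 group means ran from 0.80 TPM in B16-BL6 sgNC tumors to 23.9 TPM in TAK-243 treated Myc-CaP tumors, and Ahr group means ran from 2.86 TPM in Myc-CaP sgUba1 tumors to 8.51 TPM in sgUba1 cells. In that order of group means, Cyp1b1 in the cells of the sgNC + IFN-γ group (13.7 TPM) had rank 4 of 16, and 12 of 15 pairs of neighboring groups overlapped, as they did for Ahr, with 14 of 15 for Tiparp. Cyp1a1 reached a group mean of at most 1.03 TPM and Ahrr of at most 0.14 TPM. Ahr, Cyp1b1 and Tiparp passed the low-count filter in all 6 fits, Cyp1a1 passed it in the Myc-CaP sgRNA tumors alone, and Ahrr passed it in none.

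IFN-γ in the sgNC cells gave the comparison that chose the genes. Cyp1b1 stood at 9.14 and 9.12 CPM in the sgNC cells and at 48.4 and 46.7 CPM with IFN-γ, a 5.21-fold difference (log2 fold change 2.38 ± 0.08 SE). The replicates lay close together and the groups were far apart. Tiparp, the most abundant AHR target of the set, stood at 115 and 108 CPM without IFN-γ and at 124 and 125 CPM with it, a log2 difference of 0.16 ± 0.05. Ahr stood at 17.6 and 16.7 CPM and then at 17.8 and 18.4 CPM, a log2 difference of 0.08 ± 0.07. Under other settings that kept every library the values were 0.083 to 0.16 for Tiparp and −0.0017 to 0.083 for Ahr. Cyp1a1 had 0 counts in all 4 libraries and Ahrr had at most 2. Of 18 AHR target genes on a list drawn up for this report, 8 passed the filter in the cells. All 8, Cyp1b1 among them, had a log2 fold change above 0, with a median of 0.46 against 0.04 for all genes tested. The share of all genes above 0 was not counted, and nothing is read from these values in the comparison that chose the genes. Ugt1a6b, which encodes a glucuronidating enzyme, differed by 1.12 and Nfe2l2, the antioxidant regulator NRF2, by 0.32. In this comparison 3.88% of all genes tested were called by edgeR's quasi-likelihood test, and nothing is read from that for genes chosen here. The IFN-γ mediator Irf1 had a log2 fold change of 0.64 in these cells, against 1.61 to 1.65 in the other IFN-γ comparisons, whereas the immunoproteasome gene Psmb8 had 4.87 against 1.88 to 3.92.

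**Figure D1:**
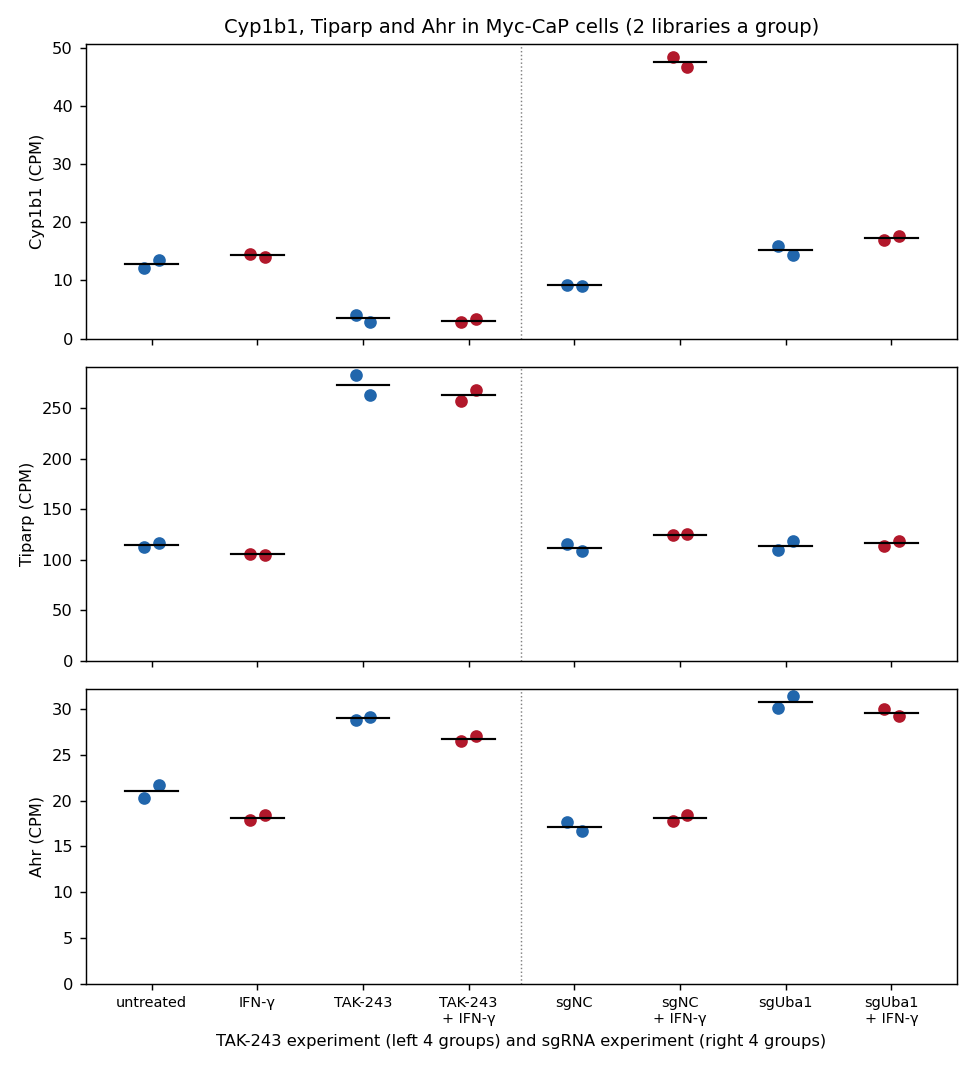
Levels of Cyp1b1, Tiparp and Ahr in CPM in the 8 groups of Myc-CaP cells, with 1 point per library (2 a group), red for groups with IFN-γ, blue for groups without, and black bars for means. Cyp1b1 lay at 46.7 and 48.4 CPM in the sgNC cells with IFN-γ and at or below 17.6 CPM in every other group, while Tiparp was high in the TAK-243 groups and Ahr was high in the TAK-243 and sgUba1 groups.

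No rise of Cyp1b1 was called where IFN-γ was tested independently of the choice. In wild-type cells of the TAK-243 experiment, Cyp1b1 stood at 12.1 and 13.5 CPM untreated and at 14.5 and 14.1 CPM with IFN-γ. The log2 fold change was 0.16 (95% interval −0.09 to 0.41, edgeR quasi-likelihood test, adjusted p = 0.399), in a comparison where 29.0% of genes were called. Both IFN-γ libraries lay above both untreated ones, a difference that was not called. In the sgUba1 cells Cyp1b1 stood at 15.9 and 14.4 CPM without IFN-γ and at 16.9 and 17.6 CPM with it (log2 fold change 0.18, interval 0.04 to 0.33, edgeR adjusted p = 0.184, 2.85% of genes called). In the TAK-243 treated cells it stood at 4.05 and 2.89 CPM and then at 2.81 and 3.32 CPM (log2 fold change −0.20, interval −0.62 to 0.22, edgeR adjusted p = 0.668, 10.5% of genes called). The sgNC cells were a clone handled in their own experiment, so clone and experiment cannot be told apart in the contrast with wild-type cells.

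Few of the other targets were called in those 3 comparisons. Tiparp fell slightly with IFN-γ in the wild-type cells, from 113 and 116 CPM to 106 and 105 CPM (log2 fold change −0.12 ± 0.04, edgeR adjusted p = 0.0293), a call that was lost in 3 of 9 other settings that kept every library and in all 4 that left 1 out, with values from −0.34 to −0.10. Tiparp had log2 fold changes of 0.03 in the sgUba1 cells (edgeR adjusted p = 0.79) and −0.06 in the TAK-243 treated cells (edgeR adjusted p = 0.377). Ahr had log2 fold changes of −0.21 (edgeR adjusted p = 0.0961), −0.06 (0.665) and −0.11 (0.482) in the same order, and the first was called in 4 of 13 other settings. Of the 8 tested AHR targets, 1 rose and 1 fell in the wild-type cells, beside 19.6% of all genes higher and 9.39% lower. The list median was −0.115 against 0.04 for all genes. In the sgUba1 cells 0 rose and 0 fell, beside 2.85% of all genes called, with a median of −0.02 against −0.004. In the TAK-243 treated cells 0 rose and 0 fell, beside 10.5% called, with a median of −0.10 against −0.001. In these last 2 comparisons 2 and 1 of the 8 had an unadjusted p under 0.05, and DESeq2 and limma-voom called 0. Beside those shares, counts from 8 genes set the list apart in none of the 3 comparisons.

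Ugt1a6b was the AHR target that rose in the wild-type cells, from a mean of 1.74 CPM to 4.37 and 3.95 CPM (log2 fold change 1.25 ± 0.30, edgeR adjusted p = 0.00176), and DESeq2 called 0 of the 8 there. It also stood higher in the sgNC cells with IFN-γ, at 5.09 and 5.17 CPM against 2.29 and 2.42 CPM. In the sgUba1 cells it stood at 3.61 and 3.64 CPM and then at 3.62 and 4.21 CPM (log2 fold change 0.11 ± 0.14, edgeR adjusted p = 0.699). Ugt1a6b shares most of its coding exons with its neighbor Ugt1a6a, so their estimated counts are uncertain. Their sum moved from 4.66 and 5.12 CPM to 6.69 and 6.76 CPM in the wild-type cells, and from 7.74 and 5.06 CPM to 11.7 and 10.7 CPM in the sgNC cells. It moved from 8.46 and 8.26 CPM to 9.95 and 9.21 CPM in the sgUba1 cells, and from 1.23 and 1.04 CPM to 1.27 and 2.13 CPM in the TAK-243 treated cells. The sum was thus higher with IFN-γ in each of the 4 comparisons, of which that in the sgNC cells chose the genes. In the TAK-243 treated cells the nearest values were 1.23 and 1.27 CPM. The sums were not tested, and the share of all genes whose groups part in this way was not counted. In the control cells the fold difference of the sum was smaller than that of Ugt1a6b taken alone.

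Known IFN-γ targets rose in each comparison independent of the choice. In the wild-type cells 8 of 10 tested genes rose and 0 fell, with a median log2 fold change of 1.82, and in the TAK-243 treated cells 8 of 10 rose, with a median of 1.76. In the sgUba1 cells 6 of 9 rose, with a median of 1.61, while in the sgNC cells the median was 0.64. Gbp2, a guanylate-binding protein, stood at 0 to 0.06 CPM without IFN-γ in the sgRNA experiment and at 1.97 and 2.15 CPM with it in the sgNC cells, against 13.7 and 12.9 CPM in the sgUba1 cells. Of the 9 control genes tested for a change of the IFN-γ effect by sgUba1, 2 had a larger effect in the sgUba1 cells, beside 4.64% of all genes called. Irf1 was one of them (0.96 on the log2 scale, edgeR adjusted p = 0.00089), whereas Gbp2 (2.09, 0.593) and Psmb8 (−0.95, 0.551) were not called. The fitted change was −2.20 for Cyp1b1, −1.01 for Ugt1a6b, −0.46 for Nfe2l2 and −0.12 for Tiparp, values that contain the comparison that chose the genes and are a description.

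**Figure D2:**
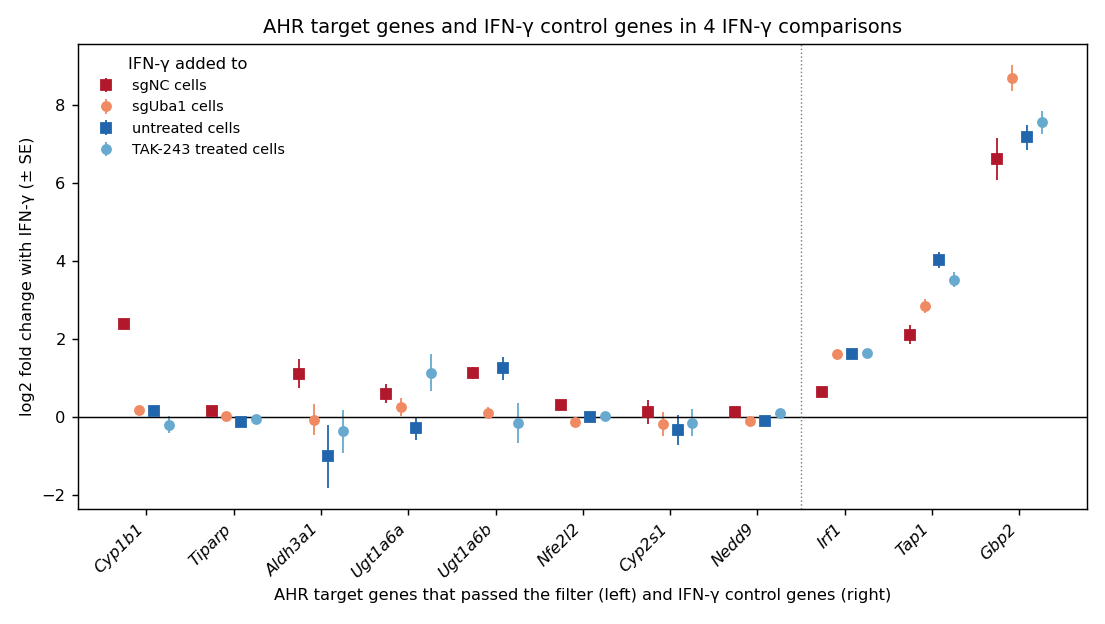
Log2 fold change with IFN-γ, with its SE, for the 8 AHR target genes that passed the filter and for 3 of the 10 IFN-γ control genes, in the 4 IFN-γ comparisons (squares for control cells, circles for sgUba1 or TAK-243 treated cells). Cyp1b1 stood at 2.38 in the sgNC cells and between −0.20 and 0.18 in the other 3, while Tiparp stayed between −0.12 and 0.16 in all 4.

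Uba1 depletion was accompanied by more Ahr. Ahr stood at 30.2 and 31.5 CPM in the sgUba1 cells against 17.6 and 16.7 CPM in the sgNC cells (1.80-fold, log2 fold change 0.84 ± 0.07, edgeR adjusted p = 7.92e-06, 29.7% of genes called). With IFN-γ it stood at 30.1 and 29.2 CPM against 17.8 and 18.4 CPM (1.64-fold, log2 fold change 0.71 ± 0.07, edgeR adjusted p = 1.05e-05, 39.4% of genes called). Both sgUba1 libraries were above both controls in each comparison, and the share of all genes whose groups part in this way was not counted. Tiparp was not called in either comparison, with log2 fold changes of 0.02 (interval −0.08 to 0.13, edgeR adjusted p = 0.793) and −0.10 (interval −0.20 to 0.005, edgeR adjusted p = 0.17). Cyp1b1 was 1.66-fold higher in the sgUba1 cells without IFN-γ, at 15.9 and 14.4 CPM against 9.14 and 9.12 CPM, and lower with IFN-γ, at 16.9 and 17.6 CPM against 48.4 and 46.7 CPM, values that share the sgNC libraries with the comparison that chose it.

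Among the other AHR targets tested in the sgUba1 cells without IFN-γ, Ugt1a6b rose (log2 fold change 0.62, edgeR adjusted p = 0.00911), and Nfe2l2 (−0.45, 0.000219) and Nedd9, a scaffold protein (−0.56, 0.001), fell. With IFN-γ, Aldh3a1 (−1.20, edgeR adjusted p = 0.0207), Ugt1a6b (−0.39, 0.035), Nfe2l2 (−0.91, 1.08e-06) and Nedd9 (−0.80, 5.03e-05) fell and 0 of the rest rose. Of 9 tested genes of tryptophan breakdown and uptake, which supply AHR ligands, 5 fell, 0 rose and 4 did not pass the test in the sgUba1 cells, both without and with IFN-γ, where 13.6% and 22.4% of all genes were lower. Ido1, which starts the kynurenine pathway, fell by 1.75 on the log2 scale without IFN-γ (edgeR adjusted p = 4.01e-07) and by 0.43 with it (0.00102). Ido2, Kyat1, and the amino acid transporter genes Slc7a5 and Slc3a2 fell in both comparisons as well, with list medians of −0.30 and −0.33 against −0.002 and 0.008 for all genes. In the receptor complex, Ptges3, which encodes p23, rose in both (0.23 and 0.36, edgeR adjusted p = 0.00588 and 0.000234), and Arnt fell by 0.13 with IFN-γ (0.046).

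TAK-243 moved the AHR genes in opposite directions. Cyp1b1 fell from 12.1 and 13.5 CPM in untreated cells to 4.05 and 2.89 CPM with TAK-243 (log2 fold change −1.86 ± 0.16, edgeR adjusted p = 3.14e-11). With IFN-γ in both groups it fell from 14.5 and 14.1 CPM to 2.81 and 3.32 CPM (−2.21 ± 0.17, 6.51e-13), a value that was −1.34 on the log2(TPM + 1) scale. Tiparp rose from 113 and 116 CPM to 282 and 262 CPM (2.38-fold, log2 fold change 1.25 ± 0.04, edgeR adjusted p = 2.9e-22), and with IFN-γ from 106 and 105 CPM to 257 and 267 CPM (1.32 ± 0.04, 1.11e-22). Ahr rose from 20.3 and 21.7 CPM to 28.8 and 29.2 CPM (1.38-fold, log2 fold change 0.46 ± 0.09, edgeR adjusted p = 3.08e-05), and with IFN-γ from 17.9 and 18.4 CPM to 26.5 and 27.0 CPM (0.56 ± 0.09, 3.17e-06). For each of the 3 genes the groups did not overlap with or without IFN-γ, and the share of all genes whose groups part in this way was not counted. TAK-243 changed most of the transcriptome, with 66.3% of genes called without IFN-γ and 68.2% with it, so a call alone sets none of these genes apart. The IFN-γ effect on Cyp1b1 differed by −0.36 (interval −0.85 to 0.13, edgeR adjusted p = 0.554) between treated and untreated cells, and 2.38% of genes were called for that difference.

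Other AHR genes moved in both directions under TAK-243, as did the genes as a whole, of which 32.3% were higher and 34.0% lower without IFN-γ and 32% higher and 36.2% lower with it. Of 8 tested targets, 2 rose and 4 fell without IFN-γ, and 3 rose and 4 fell with it, beside the 66.3% and 68.2% of all genes called. Besides Tiparp, Nedd9 rose in both (0.94 and 1.15, edgeR adjusted p = 4.95e-11 and 5.46e-13) and Aldh3a1 with IFN-γ (1.76, 0.0354). Besides Cyp1b1, the genes that fell were Ugt1a6a (−2.58 and −1.15), Ugt1a6b (−1.46 and −2.87) and Nfe2l2 (−0.30 and −0.28). Hsp90aa1 and Hsp90ab1, the chaperones that hold the receptor and that also rise in the heat shock response, rose by 1.90 and 1.06 without IFN-γ (edgeR adjusted p = 1.37e-31 and 2.15e-26), whereas Arnt, the partner of the receptor, fell by 0.36 (1.1e-06). Of the 6 genes tied to AHR degradation, Cul4b, Ddb1, Rbx1 and Tiparp rose, and Stub1, which encodes the ubiquitin ligase CHIP, and Tbl3 fell, both without and with IFN-γ. Of 8 tested genes of ligand supply, Ido1 (−0.86), Kyat1, Slc7a5 (−1.04) and Slc3a2 (−0.32) fell without IFN-γ and Il4i1, an amino acid oxidase, rose (1.23, edgeR adjusted p = 0.0219). With IFN-γ 3 fell, which were Kyat1, Slc7a5 (−1.13) and Slc3a2 (−0.36), and 0 rose, with Ido1 at −0.16 (edgeR adjusted p = 0.0918) and Il4i1 at 0.53 (0.309).

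Cyp1a1 and Ahrr were close to silent in the cells. Cyp1a1 had 0 counts in 14 of 16 libraries and 1 count in each of the TAK-243 libraries without IFN-γ. A count of 0 allows up to 3 counts, which is 0.0789 to 0.233 CPM at the depth of these libraries, and this limit covers counting error only. Ahrr had 0 to 5 counts in the 16 libraries, 29 in all. It had 5 counts in each TAK-243 library without IFN-γ (0.31 and 0.40 CPM) and 1 count in each untreated library (0.064 and 0.062 CPM), so these groups did not overlap, and with IFN-γ it had 2 and 4 counts with TAK-243 and 2 and 0 without. Neither gene passed the low-count filter in the cells, so neither was tested there.

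In the tumors, Cyp1b1 was higher in the Myc-CaP model than in B16-BL6 and varied widely between tumors of 1 group. In the OE experiment it stood at 5.0, 31.5, 23.6 and 33.8 CPM in the OE tumors and at 33.6, 36.8 and 50.5 CPM in the EV tumors (log2 fold change −0.78, interval −1.76 to 0.20, edgeR adjusted p = 0.434, 0.0269% of genes called). The OE tumor at 5.0 CPM lay far below the rest, the groups overlapped by a small margin, and the fold change without it was −0.45. In the TAK-243 experiment it ran from 33.2 to 132 CPM (median 67.4) with TAK-243 and from 19.5 to 101 CPM (median 32.7) with vehicle (log2 fold change 0.61, interval −0.24 to 1.47, edgeR adjusted p = 0.53, 0.145% of genes called). The direction was opposite to that in the TAK-243 treated cells, and the groups overlapped. In B16-BL6 it stood at 2.08 to 3.3 CPM (median 2.75) in the controls and at 3.67, 3.46, 2.47 and 1.66 CPM in the sgUba1 tumors (log2 fold change 0.06, interval −0.48 to 0.60, edgeR adjusted p = 0.937, 0.724% of genes called). In bulk tumors, a change in the share of a cell type and a change in RNA per cell cannot be told apart.

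Tiparp was lower in all 4 OE tumors (225, 251, 233 and 300 CPM) than in all 3 EV tumors (325, 424 and 400 CPM), with a log2 fold change of −0.60 ± 0.13 that missed the threshold (edgeR adjusted p = 0.123). DESeq2 called it (adjusted p = 0.00466), as did edgeR without OE tumor 1 (adjusted p = 0.0473). Cell type markers moved with the group in this experiment. T and NK cell markers summed to 5.95 to 11.9 CPM in the OE tumors and 17.1 to 23.5 CPM in the EV tumors. In the cultured cells that list summed to 2.42 to 8.17 CPM, a range that held the lowest OE sum. Prostate epithelial markers summed to 1314 to 2189 CPM in OE and 2229 to 2532 CPM in EV. Neither list overlapped between the groups, while macrophage sums of 86.4 to 249 CPM and 220 to 262 CPM overlapped. By the mean of log2 CPM over the list, the prostate groups overlapped as well, at 1.84 to 2.67 in OE and 2.34 to 2.38 in EV. The part of these cell types in the values of Tiparp, Cyp1b1 and Cyp1a1 was not tested. Tiparp ran from 203 to 287 CPM (median 216) in the TAK-243 tumors and from 215 to 385 CPM in the vehicle tumors (log2 fold change −0.37, interval −0.67 to −0.07, edgeR adjusted p = 0.29), again opposite in sign to the cells. In B16-BL6 it ran from 93.2 to 113 CPM over all 7 tumors (log2 fold change −0.006, interval −0.16 to 0.14, edgeR adjusted p = 0.979). Ahr had log2 fold changes of 0.39 in the OE experiment (edgeR adjusted p = 0.281), −0.19 with TAK-243 (0.726) and −0.16 in B16-BL6 (0.643), with overlapping groups in each. Neutrophil markers rose with TAK-243 (3 of 5 genes, summed levels of 18.5 to 31.5 CPM against 7.91 to 12.4 CPM). Prostate epithelial markers summed to 2668 to 3686 CPM with TAK-243 and 1719 to 2476 CPM with vehicle, without overlap, and macrophage markers to 142 to 311 CPM and 118 to 167 CPM, above every vehicle tumor in 4 of 5. By the mean of log2 CPM over the list, the prostate groups overlapped, at 1.74 to 2.43 with TAK-243 and 1.62 to 2.16 with vehicle. The part of these cells in the TAK-243 tumor values was not tested.

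Cyp1a1 was not read in any of the 7 B16-BL6 tumors, where a count of 0 allows up to 0.084 to 0.114 CPM. The 4 OE tumors had 0, 1, 0 and 1 counts and the 3 EV tumors had 2, 6 and 4, lower in 4 of 4, with an exact permutation test over tumors (two-sided) giving p = 0.0286, the smallest it allows, and 0.125 after adjustment over 6 such tests. The TAK-243 tumors had 4, 28, 7, 8 and 4 counts and the vehicle tumors 2, 4, 9, 8, 2 and 2 (exact permutation p = 0.165, adjusted p = 0.329). TAK-243 tumor 2 gave the 28 counts and was not the tumor with keratinocyte markers. Ahrr had at most 6 counts in any tumor and 41 over all 35, and its exact permutation tests gave adjusted p from 0.125 to 0.371.

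**Figure D3:**
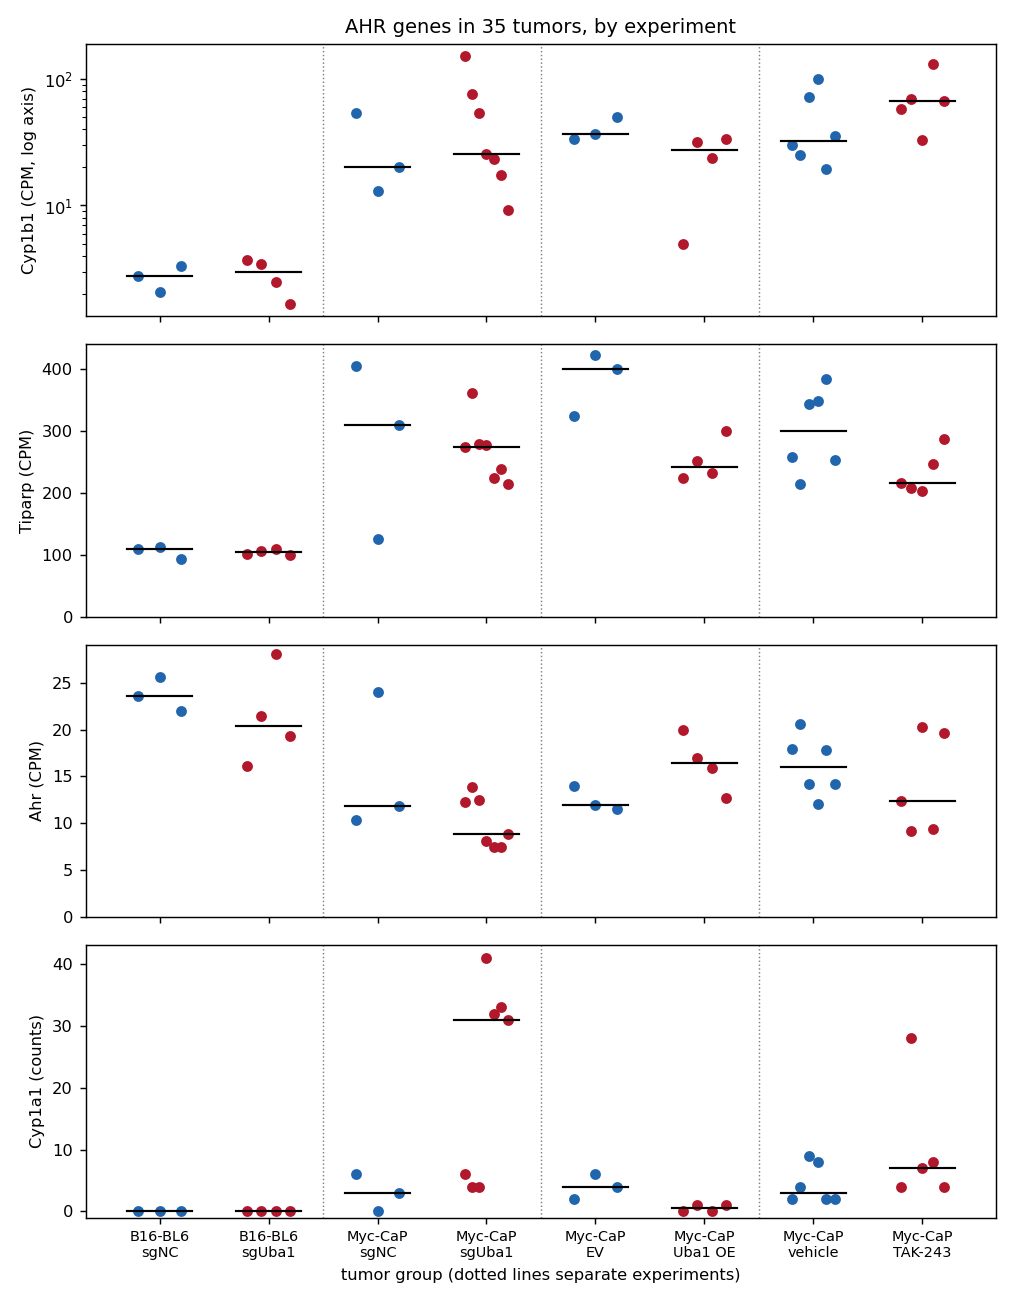
Cyp1b1, Tiparp and Ahr in CPM (Cyp1b1 on a log axis) and Cyp1a1 in counts in the 35 tumors, by group, with control groups in blue, perturbed groups in red and black bars for medians. Cyp1b1 lay between 1.66 and 3.67 CPM in B16-BL6 and between 5.0 and 151 CPM in Myc-CaP, and Cyp1a1 was above 10 counts in 4 tumors labelled sgUba1 and in 1 TAK-243 tumor.

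In the Myc-CaP sgRNA experiment tumors 1 to 3 and 4 to 7 labelled sgUba1 did not overlap in Cyp1b1, Cyp1a1 and Ahr, and overlapped in Tiparp and Ahrr. The share of all genes that part these tumors in this way was not counted. The paper used independent guide RNAs against Uba1, and the labels do not say which one a tumor carried. Cyp1b1 stood at 53.8, 13.0 and 20.1 CPM in the 3 controls, at 151, 76.2 and 54.3 CPM in sgUba1 tumors 1 to 3, and at 25.7, 23.4, 17.4 and 9.29 CPM in tumors 4 to 7. Over all 7 the log2 fold change was 0.82 (interval −0.77 to 2.40, edgeR adjusted p = 0.577, 3.04% of genes called), and without tumors 4 to 7 it was 1.69 ± 0.60 (adjusted p = 0.208). Tumors 1 to 3 were all above the 3 controls, the first control by less than 1 CPM. Cyp1a1 went the other way, with 6, 0 and 3 counts in the controls, 6, 4 and 4 in tumors 1 to 3, and 41, 32, 33 and 31 in tumors 4 to 7. It passed the filter through those 4 tumors alone, so its log2 fold change of 2.71 ± 1.03 (edgeR adjusted p = 0.151, DESeq2 adjusted p = 0.0403) is a description. Ahr stood at 12.3, 13.9 and 12.5 CPM in tumors 1 to 3 and at 8.13, 7.53, 7.53 and 8.82 CPM in tumors 4 to 7, against 10.4, 24.0 and 11.8 CPM in the controls (log2 fold change −0.60, interval −1.17 to −0.04, edgeR adjusted p = 0.233, and −0.25 without tumors 4 to 7, adjusted p = 0.708). Tumors 4 to 7 thus had the least Ahr and the most Cyp1a1 of the 10, and tumors 1 to 3 had the most Cyp1b1. Tiparp ran from 215 to 362 CPM in the sgUba1 tumors and stood at 405, 126 and 310 CPM in the controls (log2 fold change −0.07, edgeR adjusted p = 0.913, and 0.11 without tumors 4 to 7, adjusted p = 0.9). Ahrr had 0, 2 and 2 counts in tumors 1 to 3 and 1, 1, 1 and 2 in tumors 4 to 7. Control tumor 2, with the lowest Tiparp and the highest Ahr, lay away from the other 2 controls in both genes.

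Gsta1 rose in the tumors labelled sgUba1, above all controls in 7 of 7. Gsta1, a glutathione S-transferase, stood at 10.3, 1.61 and 4.18 CPM in the controls and at 22.6 to 84.4 CPM (median 43.9) in the sgUba1 tumors (log2 fold change 3.20 ± 0.59, edgeR adjusted p = 0.0276). Without tumors 4 to 7 the log2 fold change was 2.83 with an adjusted p = 0.122 (edgeR), in a fit with 3 against 3 tumors that called 1 gene in all, so the call does not stand there. Of 13 tested AHR targets, 2 rose and 0 fell, beside 3.04% of all genes called, with a median of 0.63 against 0.001 for all genes. At an unadjusted p under 0.05 there were 6, and DESeq2 called 4. With 1 tumor left out edgeR called 0 to 2, and it called 0, so that Gsta1 was lost, without control tumor 2 or 3 or sgUba1 tumor 4, 5 or 6, and 1 without sgUba1 tumor 1. Slc3a2 was lower in all 7 tumors (log2 fold change −0.66, edgeR adjusted p = 0.042, and −0.66 without tumors 4 to 7, adjusted p = 0.18). Cell type markers moved with the group as well. Of 7 macrophage markers 3 rose, with sums of 249.7 to 447 CPM against 151, 328 and 179 CPM in the controls. T and NK cell markers summed to 13.8 to 30.7 CPM against 10.6 to 13.4 CPM, and prostate epithelial markers to 2381 to 3160 CPM against 1673 to 2263 CPM, each without overlap. The T and NK list summed to 2.42 to 8.17 CPM in the cultured cells. Such sums follow the most abundant markers, and by the mean of log2 CPM over each of these 2 lists the groups overlapped. The prostate means were 2.04 to 2.48 in the sgUba1 tumors and 2.09 to 2.64 in the controls. EdgeR called 0 of 4 tested prostate markers. The part of these cell types in the values of these tumors was not tested. In the OE, TAK-243 and B16-BL6 tumors edgeR called 0 of 11, 0 of 13 and 0 of 10 tested AHR targets, beside 0.0269%, 0.145% and 0.724% of all genes. There 4, 2 and 1 had an unadjusted p under 0.05, and DESeq2 called 3, 1 and 0.

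**Figure D4:**
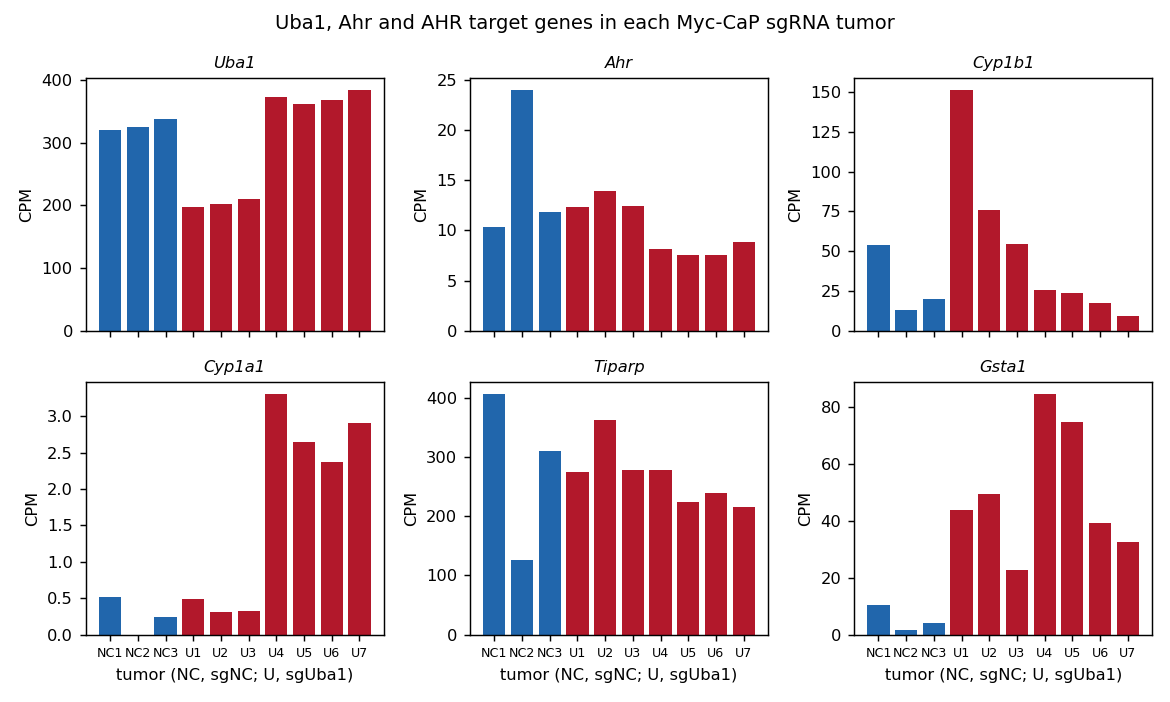
Uba1, Ahr and 4 AHR targets in CPM in each of the 10 Myc-CaP sgRNA tumors, 1 bar per tumor, with the 3 controls in blue and the 7 tumors labelled sgUba1 in red. Uba1 was below the controls in tumors U1 to U3 and above them in U4 to U7, Cyp1a1 was high in U4 to U7, and Gsta1 was above the controls in all 7.

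Across tumors, Cyp1b1 was higher where Ahr was lower in part of the experiments. The relation was computed for Cyp1b1 with Ahr and with Tiparp in 3 experiments, 6 relations in all, on log2 CPM. The Myc-CaP sgRNA tumors fell into clusters of fewer than 6 and were left out. The groups of the OE and B16-BL6 experiments, of 3 or 4 tumors, were also below 6 and were kept. Their permutations ran over both groups together. The relation was thus not tested in the Myc-CaP sgRNA tumors, where its direction was mixed. There sgUba1 tumors 1 to 3 had more Cyp1b1 and more Ahr than tumors 4 to 7. Among the controls, the tumor with the most Ahr had the least Cyp1b1. In the OE experiment (7 tumors) Pearson's r of Cyp1b1 and Ahr was −0.839 (exact permutation p = 0.00298, adjusted p = 0.0179) and Spearman's rho was −0.964 (exact permutation p = 0.00278, adjusted p = 0.0167). Without the 2 tumors farthest from the median of Cyp1b1, r was −0.68 (exact permutation p = 0.183), so the call was lost. The 5 tumors left are too few to tell whether the relation rests on those 2. Within the OE tumors r was −0.794 and within the EV tumors −0.806. In the TAK-243 experiment (11 tumors) r was −0.732 (permutation p = 0.0125, adjusted p = 0.0376) and rho was −0.736 (permutation p = 0.0125, adjusted p = 0.0251), with r = −0.86 within the vehicle tumors and r = −0.70 within the TAK-243 tumors. Without the 2 farthest tumors r was −0.642 (exact permutation p = 0.0631), so this call too was lost. In B16-BL6 (7 tumors) r was −0.316 (exact permutation p = 0.489, adjusted p = 0.734) and rho was −0.429 (exact permutation p = 0.354, adjusted p = 0.53), with r = −0.827 without the 2 farthest tumors (exact permutation p = 0.0917).

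**Figure D5:**
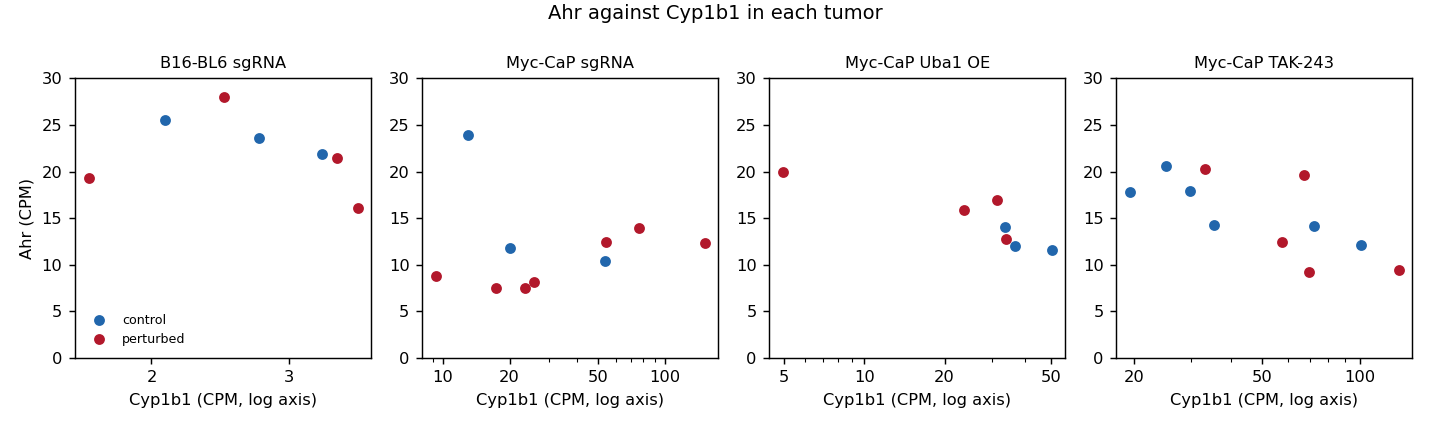
Ahr against Cyp1b1 in CPM (Cyp1b1 on a log axis) in each tumor of the 4 experiments, with control tumors in blue and perturbed tumors in red. The points descend from left to right in the OE and TAK-243 experiments (r = −0.839 and −0.732) and form no such line in the Myc-CaP sgRNA tumors.

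Cyp1b1 and Tiparp ran together in the OE experiment by rank (r = 0.69, exact permutation p = 0.027, adjusted p = 0.054, and rho = 0.929, exact permutation p = 0.00675, adjusted p = 0.0202), with r = 0.679 within the OE tumors, 0.508 within the EV tumors and 0.822 without the 2 farthest tumors (exact permutation p = 0.1). In the TAK-243 experiment r was 0.0441 (permutation p = 0.896) and rho 0.0727 (permutation p = 0.838) over both groups. Within the TAK-243 tumors r was 0.494 and within the vehicle tumors 0.349, and without the 2 farthest tumors it was 0.595 (exact permutation p = 0.0961). In B16-BL6 r was −0.235 (exact permutation p = 0.613) and rho −0.286 (exact permutation p = 0.556), with r = −0.679 without the 2 farthest tumors (exact permutation p = 0.175). Some marker lists moved with these genes to a moderate degree. Over the 35 tumors, with each experiment centred on its own mean, Cyp1b1 had r = 0.407 with the T and NK cell markers, 0.363 with the macrophage markers and 0.323 with the fibroblast markers, and Ahr had r = −0.588, −0.462 and −0.03 with the same lists. These lists had the highest r with Cyp1b1. The rest ran from −0.04 (endothelial) to 0.257 (prostate epithelium) for Cyp1b1, and from −0.424 (melanoma) to 0.0859 (prostate epithelium) for Ahr. Melanoma markers summed to only 13.7 to 32.5 CPM in the Myc-CaP tumors, so an r of this size does not single out a cell type. The part of these cells in the levels of the AHR genes was not tested.

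The 5 genes whose pattern was most like that of Cyp1b1 were not on the AHR lists. With 5 taken from so many genes, a member of a short list would seldom be among them, so nothing is read from this. Over the 35 tumors, centred by experiment, the 5 highest Pearson correlations among 13351 genes were with Ctsl, a lysosomal protease (r = 0.875), Adamts10 (0.84), Akr1c13 (0.837), Fbxo2 (0.835) and the collagen Col12a1 (0.832). Tiparp had r = 0.454 with Cyp1b1 in the same tumors, Cyp1a1 0.0912, Ahrr −0.03 and Ahr −0.306. Over the 16 cell libraries the 5 highest among 11268 genes were Tcta (0.951), Flvcr2 (0.931), Aunip (0.926), Ptpn9 (0.919) and Srsf2 (0.917), whereas Tiparp had r = −0.687 and Ahr −0.487. The genes most like Tiparp in the tumors were Cttnbp2nl (0.822), Tbc1d8 (0.812), Klf15 (0.772), Csnk1g3 (0.769) and Plrg1 (0.763). Points in these correlations share their experiment and treatment, and the 16 cell libraries include those of the comparison that chose the genes, so the values are descriptions.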

How the data were processed

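Bulk RNA-seq of 51 mouse libraries was analysed. The authors deposited expected counts per gene, estimated with kallisto per the submitters' processing notes, which also name the mm10 build and give no version. TPM values, scaled by the authors for length and depth, were deposited beside them. On library preparation the sources differ, with ribosomal RNA removal in the methods and poly-A selection in the labels. The planned test assumed read counts, so expected counts were rounded to whole numbers. Of 40077 gene IDs, 39867 matched GENCODE M21 without their version. Samples were grouped by their labels alone. The 5 genes and the gene lists were chosen with earlier results of these data known.

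Genes were filtered with filterByExpr, scaled by TMM and tested with edgeR 4.0.16 (quasi-likelihood F test, R 4.3.3) with Benjamini-Hochberg adjustment over all genes tested and a threshold of 0.05. The 8 cell libraries of an experiment were fitted together and each tumor experiment alone. SEs were taken from the F statistic, and 95% intervals are 1.96 SEs to each side. CPM and log2 CPM (prior count 2) used TMM factors. Genes named are the 5 genes, Uba1, list genes with an adjusted p under 0.05, and the 5 genes most correlated with Cyp1b1 or Tiparp among those with a mean log2 CPM of at least 1. The lists were the receptor complex, AHR targets, ligand supply, AHR degradation and IFN-γ control genes, with markers of 9 cell or tissue types. Members below the filter were compared by exact permutation of mean log2 CPM. Alternatives were DESeq2 1.42.0, limma 3.58.1 (voom, log2(TPM + 1) and log2(TPM + 0.1)), RLE factors, no filter, at least 10 counts in every library, the replicate number as a block, only the 2 groups compared, each library left out, and, added after seeing the data, tumors labelled sgUba1 without the 4 with Uba1 above every control. The fits were tested on simulated data. Replicates of 75 pairs all differed by more than counting noise (chi-square per degree of freedom 1.84 to 99.2), and 0 were identical. Correlations of same-numbered replicates ran from −0.179 to 0.315, so the numbers do not pair samples. Results for a few list genes are not reported here.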

Additional observations from a re-analysis of the deposited data

Results flagged for a closer look

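Of the genes described here, Uba1, Ido1, Psmb8 and Ddb1 responded to IFN-γ by a different amount in TAK-243 treated cells than in untreated cells, by edgeR's quasi-likelihood test of that difference over 8 libraries. Ido1, which starts the kynurenine pathway, rose more with TAK-243, by 0.70 on the log2 scale (adjusted p = 0.00989). Psmb8, an immunoproteasome subunit, rose less (−1.90, adjusted p = 0.00406). The effect on Ddb1, a ubiquitin ligase subunit, differed by −0.15 (adjusted p = 0.0142) and that on Uba1 by −0.17 (adjusted p = 0.0292). Ahr, Cyp1b1 and Tiparp were not called there, with adjusted p from 0.554 to 0.804. In 19 pairs of a gene and a tumor group of 4 to 7, 0 tumors stood apart from the rest by Dixon's criterion.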

How the results depend on the processing

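Of 629 member fold changes under other settings, 570 were unchanged, 7 lost and 7 gained a call, 26 reversed and 19 moved by more than the replicate spread. The causes were not tested. Unchanged meant the same direction and side of the threshold. For values given as a description in the sgRNA cells, which carry no test, it meant a move smaller than the replicate spread. Cyp1b1 with IFN-γ in the sgNC cells (2.38) was 2.33 with at least 10 counts in every library, 1.97 with log2(TPM + 1), 2.28 with log2(TPM + 0.1) and 2.34 with only the 2 groups, and 2.36 to 2.41 with 1 library left out. There Tiparp (0.16) moved down to 0.083 (0.11 to 0.20 with 1 left out) and Ahr (0.079) to −0.0017 (0.043 to 0.12), both on the TPM scales. On log2(TPM + 1) the sgUba1 effect on Cyp1b1 was 0.61 without IFN-γ (0.63 to 0.80 with 1 library left out) and −1.34 with it (−1.49 to −1.38), and its change with IFN-γ was −1.94 (−2.23 to −2.09). Results that reversed had main values from −0.20 to 0.16 and were not called. The reversed values reached 0.29, for Tiparp in the Myc-CaP sgRNA tumors with 1 left out. Cyp1b1 with IFN-γ in the wild-type cells was −0.027 and −0.033 on the TPM scales, and with 1 library left out it ran from −0.38 to 0.11 in the TAK-243 treated cells and from −0.10 to 0.24 in B16-BL6. Tiparp was −0.0037 in sgUba1 cells with at least 10 counts (−0.036 to 0.070 with 1 left out), −0.085 and −0.087 with IFN-γ in sgUba1 cells on the TPM scales (−0.025 to 0.10), −0.092 to 0.016 in TAK-243 treated cells, and 0.056 and 0.057 in B16-BL6 on the TPM scales (−0.086 to 0.049). In the Myc-CaP sgRNA tumors Tiparp was 0.072 by limma-voom, 0.062 and 0.064 on the TPM scales, 0.11 without the 4 tumors and −0.43 to 0.29 with 1 left out.

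The count of genes called moved more. With IFN-γ it was 603 in sgNC cells (18 to 1460 in settings with every library, 35 to 2721 with 1 left out), 443 in sgUba1 cells (33 to 2087, 39 to 108), 4216 in wild-type cells (2617 to 4384) and 1534 in TAK-243 treated cells (67 to 1771, 580 to 1463). For sgUba1 it was 4618 without IFN-γ (2618 to 5037) and 6119 with it (4037 to 7119), and for the changes of the IFN-γ effect 720 by sgUba1 (4 to 1487) and 347 by TAK-243 (1 to 488). In tumors it was 127 in B16-BL6 (89 to 534), 492 in Myc-CaP sgUba1 (1 without the 4 tumors, 1862 by DESeq2), 4 in OE (0 to 707) and 25 with TAK-243 (0 to 544). A replicate block, with numbers that do not pair samples, gave Tiparp 0.25 and 2 genes called in the Myc-CaP sgRNA tumors, 768 with IFN-γ in sgUba1 cells, 0 in OE and 8 in TAK-243 tumors. Low counts of Cyp1a1 and Ahrr limit any statement on them.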
